A study of Mus musculus with 18 samples.

Results

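Cholecystokinin (*Cck*), neurogranin (*Nrgn*), *Thy1*, *Camk2a*, *Slc17a7* and *Asic2* are 6 genes that pyramidal neurons take up as they mature, and all 6 were lower in *Kdm2b* cKO hippocampi at P0 (postnatal day 0). They were chosen by name, and in part because several had fallen in those same hippocampi, so their values there are a description and carry no test. Each of the 4 expression tables held an entry for every one of the 6, and they stand among up to 54429 gene names. Tests are given for neurospheres, cortices and *Rnf2* hippocampi, which the stated choice did not name. Earlier results of these data were known when the genes were chosen, so these tests are not fully independent of the choice. The mean *Cck* level of cKO hippocampi was 63.9% below that of controls, the *Nrgn* level 54.1%, and the other 4 genes between 33.4% and 43.2%.

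RNA-seq was done on mouse tissue and cultured cells at P0. *Kdm2b* controls carried Kdm2bfl/+ or Kdm2bfl/fl, which the labels do not tell apart, and cKO animals were Kdm2bEmx1-delta-CxxC, in which Emx1-Cre removes the floxed exon for the CxxC zinc finger in progenitors of the dorsal telencephalon. There were 3 control and 3 cKO hippocampi, 2 and 2 neurosphere cultures of hippocampal neural progenitor cells (NPCs) grown floating and passaged with FGF2 and EGF, and 2 and 2 cortices. For *Rnf2*, 2 control hippocampi (Rnf2fl/+ or Rnf2fl/fl) were set beside 2 of Rnf2Emx1-cKO. Controls were thus floxed too, and Emx1-Cre spares interneurons, vessels and other cells of another origin that remain in the dissected tissue. Nothing in the labels says that libraries came from separate animals, so p values measure the spread between libraries.

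Pyramidal neurons are the excitatory output cells of the hippocampus and cortex. After leaving the cell cycle they extend axons, and later build glutamatergic synapses, a step that continues for weeks after birth in the mouse. *Slc17a7* codes for the vesicular glutamate transporter VGLUT1 on the presynaptic side. *Camk2a* (the alpha subunit of calcium/calmodulin-dependent kinase II) and *Nrgn* (a calmodulin-binding protein of dendritic spines) act on the postsynaptic side. *Thy1* codes for a lipid-anchored surface protein of the immunoglobulin family found on projection neurons, *Asic2* for a subunit of the acid-sensing sodium channels, and *Cck* for a neuropeptide that pyramidal cells and a class of interneurons make. KDM2B recruits a variant of Polycomb repressive complex 1, of which RNF2 is the catalytic core, to CpG-rich DNA that is not methylated, and it does so through the CxxC zinc finger.

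On GRCm38, 3 of the 6 genes lie on chromosome 9: *Cck* at chr9:121489824-121495694 on the minus strand, *Nrgn* at chr9:37544492-37552904 on the minus strand and *Thy1* at chr9:44043384-44048579 on the plus strand. *Slc17a7* is at chr7:45163949-45176142 on the plus strand, and *Asic2* spans chr11:80880169-81968457 on the minus strand. Exons of the 6 genes overlap no exon of another gene.

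Because the CxxC finger reads CG pairs, the promoter windows, which run from upstream of the start to just past it, of *Cck* and *Nrgn*, the pair with the lowest cKO levels relative to controls, are shown with that of *Slc17a7*, whose cortical level was not lower. The sequences are RefSeq's on GRCm38.p6, 5′ to 3′ on the gene's strand, and capitals mark CG pairs.
Cck, chr9:121495645-121495944, minus strand: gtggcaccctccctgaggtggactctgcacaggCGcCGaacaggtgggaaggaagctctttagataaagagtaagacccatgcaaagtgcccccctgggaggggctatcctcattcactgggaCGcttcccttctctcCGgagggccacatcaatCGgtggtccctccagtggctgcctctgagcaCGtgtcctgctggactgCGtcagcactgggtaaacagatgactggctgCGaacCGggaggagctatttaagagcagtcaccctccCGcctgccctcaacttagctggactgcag
Nrgn, chr9:37552696-37552995, minus strand: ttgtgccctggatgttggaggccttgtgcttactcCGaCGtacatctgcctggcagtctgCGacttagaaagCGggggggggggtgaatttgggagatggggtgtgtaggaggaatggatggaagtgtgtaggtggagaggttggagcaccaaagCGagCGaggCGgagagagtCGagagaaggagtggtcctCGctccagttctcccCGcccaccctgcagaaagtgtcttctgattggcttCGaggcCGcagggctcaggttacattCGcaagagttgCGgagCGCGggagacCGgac
Slc17a7, chr7:45163671-45163970, plus strand: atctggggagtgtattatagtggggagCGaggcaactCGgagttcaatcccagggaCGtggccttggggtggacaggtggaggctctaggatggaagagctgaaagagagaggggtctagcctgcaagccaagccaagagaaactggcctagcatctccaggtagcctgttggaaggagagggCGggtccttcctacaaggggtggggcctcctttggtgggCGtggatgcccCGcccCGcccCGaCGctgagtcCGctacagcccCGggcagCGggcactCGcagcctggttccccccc

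These windows held 10 CG pairs for *Cck*, 17 for *Nrgn* and 13 for *Slc17a7*, while 2 starts of *Asic2* held 16 and 9. Over 32851 promoters of the same length the median was 7 and the quartiles 3 and 20, so these windows lay in the middle range, and 43.5% of promoters held at least 10. Methylation and KDM2B binding were not among the measurements. Searched on both strands, the E-box CANNTG, a site of neuronal bHLH factors, was in the windows of *Cck* (3 matches), *Nrgn* (1) and *Slc17a7* (1) and in 72.3% of promoters. One of the *Cck* matches is CACGTG, found in 7.15% of promoters. The *Cck* window also held TGCGTCA, a variant of the cAMP-response element that was picked with this window in view and occurs in 2.12% of promoters, while the full element TGACGTCA (1.79% of promoters) and the TCF/LEF motif CTTTGAT (3.73%) were in none of the 5 windows. TATAAA, present in 13.6% of promoters, was found at the *Asic2* start at the 5′ end of the gene (2 matches, overlapping and on opposite strands). Promoters of *Camk2a* and *Thy1* are named only.

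Levels are given in FPKM (fragments per kilobase of transcript, relative to all mapped fragments), a scale per length on which genes can be set side by side. Differences are log2 fold changes, cKO minus control, on log2(FPKM + 1), which understates the change of low genes, and SE is their standard error. A gene was called when its log2 fold change was over 0.4 in size with an unadjusted p under 0.05 in limma, the study's own thresholds, and p values adjusted over all tested genes (Benjamini-Hochberg) stand beside the calls. Genes whose mean over a table's libraries reached 0.5 FPKM were tested. FPKM totals ran from 261406 to 383249 in tissue libraries and from 452580 to 855276 in neurospheres. In 1 neurosphere control (control 1) 29.3% of all FPKM lay in entries without a gene name, against as little as 0.876% in another library, so its values are also given left out. Over the whole gene, *Kdm2b* did not separate the genotypes (29.4 ± 2.15 FPKM in control and 27.2 ± 0.992 in cKO hippocampi, SD, n = 3). *Rnf2* was lower in both libraries of its own cKO than in both controls (31.5 ± 1.02 and 28.1 ± 0.494 FPKM, n = 2). It was not called (log2 fold change -0.16, limma adjusted p = 0.762), and a level over the whole gene does not read a deleted exon. *Xist*, the RNA of the inactive X chromosome, was near 0 in 5 of the 6 *Kdm2b* hippocampal libraries and at 154 FPKM in cKO 1. It was also near 0 in cKO 1 of neurospheres (0.361 FPKM, 140.0 to 175 in the other 3) and in control 1 of cortices (0.0177, 132 to 189 in the other 3), so these libraries differ in sex, while all 4 *Rnf2* libraries held 71.0 to 122 FPKM. Where 1 of 2 libraries of a group was left out, the lone one was assumed to vary like the other group, and a call then rests on that group's spread.

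In *Kdm2b* hippocampi, the peptide gene *Cck* had the highest control level of the 6 and the lowest cKO level relative to it. It stood at 162, 241 and 155 FPKM in the controls and at 100.05, 36.9 and 64.2 FPKM in the cKO libraries. Every cKO library was below every control, and cKO 2 was the lowest. The means were 186 ± 47.7 and 67.1 ± 31.7 FPKM (SD, n = 3), a log2 fold change of -1.54 (SE 0.30). Of 13446 tested genes, 5 had a more negative fold change.

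Both postsynaptic genes were lower in cKO hippocampi. *Nrgn* was at 106, 112 and 108 FPKM in controls and 52.7, 37.4 and 59.2 FPKM in cKO libraries, and cKO 2 was again lowest. Its controls differed by less than the cKO libraries did, and the log2 fold change was -1.13 (SE 0.14). *Camk2a*, at chr18:60925618-60988152 on the plus strand of GRCm38, was at 77.6, 96.0 and 68.3 FPKM in controls and at 49.7, 43.6 and 51.1 FPKM in cKO libraries, with a log2 fold change of -0.72 (SE 0.11). The highest *Camk2a* value was that of control 2, the library that was also highest for *Cck* and *Slc17a7*.

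*Slc17a7*, the presynaptic transporter, lay closest to overlap, with 84.1, 101 and 70.4 FPKM in controls and 55.8, 50.02 and 64.7 FPKM in cKO libraries. Its log2 fold change was -0.57 (SE 0.13). The surface protein gene *Thy1* had the tightest groups, 30.3, 29.5 and 28.2 FPKM in controls against 16.7, 16.5 and 16.8 FPKM in cKO libraries, a log2 fold change of -0.78 (SE 0.052). The channel subunit gene *Asic2* had 22.9, 23.9 and 22.1 FPKM in controls and 16.0, 14.3 and 14.5 FPKM in cKO libraries, a log2 fold change of -0.59 (SE 0.063). For *Thy1* and *Asic2* the gap between genotypes was several times the spread within them.

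**Figure D1:**
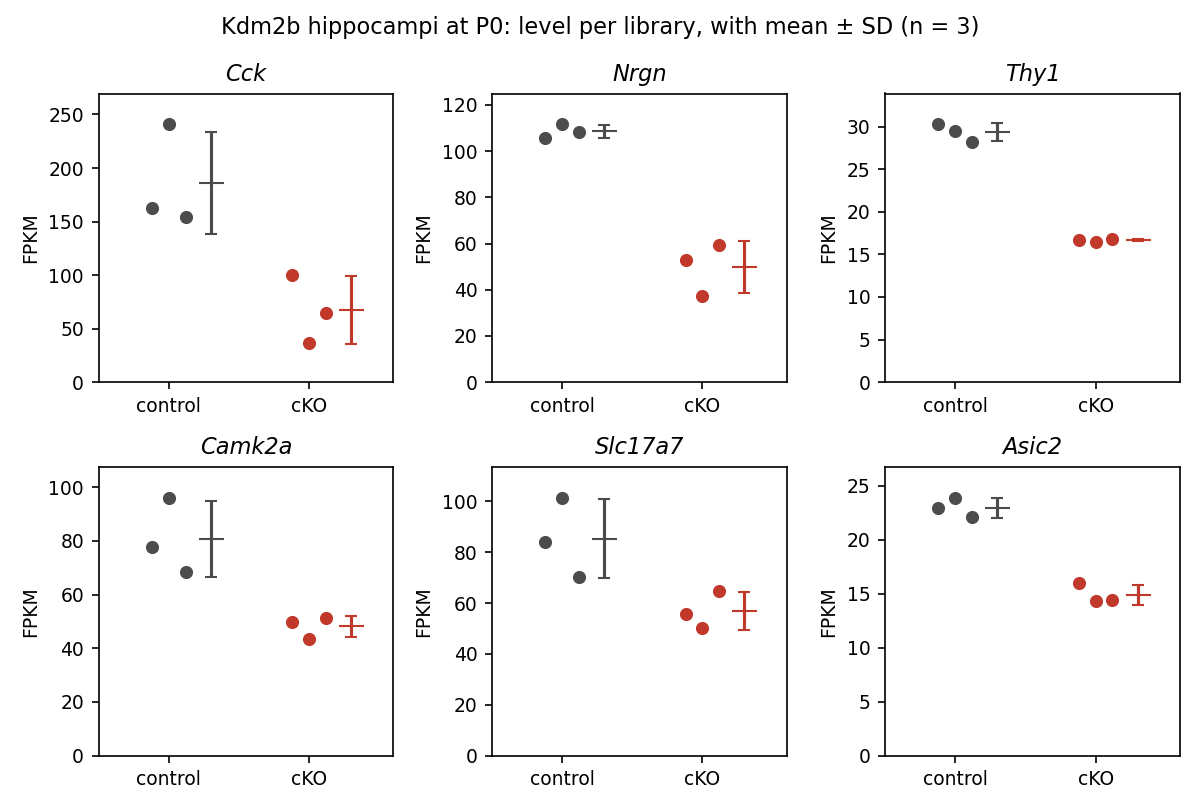
Level of each gene in FPKM (y axis, from 0) in the 3 control (grey) and 3 cKO (red) *Kdm2b* hippocampal libraries at P0, in replicate order, with mean ± SD beside the points. In each of the 6 panels every cKO point is below every control point. *Slc17a7* comes closest to overlap, with 64.7 FPKM in the highest cKO and 70.4 in the lowest control.

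All 6 genes thus had each cKO library below each control, a pattern that 14.3% of the 13446 tested genes showed, and all 6 passed the call thresholds, where 2.25% of genes were lower and 3.89% higher. These shares are background only, since the genes were picked with this contrast known. In control hippocampi the order of levels was *Cck*, *Nrgn*, *Slc17a7* (85.3 ± 15.5 FPKM), *Camk2a* (80.7 ± 14.1), *Thy1* (29.3 ± 1.05) and *Asic2* (23.0 ± 0.903). *Slc17a7* and *Camk2a* were closer to each other than their spread, and the ranges of *Nrgn* and of both these genes lay apart. In cKO hippocampi *Cck* (67.1 ± 31.7), *Slc17a7* (56.8 ± 7.37), *Nrgn* (49.8 ± 11.2) and *Camk2a* (48.1 ± 3.998) overlapped, with *Thy1* (16.7 ± 0.154) and *Asic2* (14.9 ± 0.933) below them. Leaving out cKO 1, the library with *Xist*, gave log2 fold changes of -1.88 for *Cck*, -1.19 for *Nrgn* and -0.56 for *Slc17a7*, all still lower. Leaving out cKO 2 gave -1.17 and -0.95 for *Cck* and *Nrgn*.

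Less RNA of a gene in whole tissue can come from fewer cells that use it or from less RNA in each, and bulk libraries cannot tell these apart. Pan-neuronal genes gave a reference. None of 11 (*Tubb3*, *Map2*, *Dcx* and others) was called with limma, although 4 were lower at an unadjusted p under 0.05 without the fold threshold. At that threshold 1553 of all 13446 tested genes were lower and 1537 higher. The median log2 fold change of the 11 was -0.06, and their summed level was 2487 to 2626 FPKM in controls and 1998 to 2316 in cKO libraries. The mean of the 6 genes minus the mean of the 11 pan-neuronal genes, both on log2(FPKM + 1), was -0.44, -0.29 and -0.54 in controls and -1.07, -1.50 and -1.10 in cKO libraries. This comparison was added after the values were seen, and since the 6 genes were chosen with these libraries known, their lower place against pan-neuronal genes is a description.

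Among progenitor genes in the same libraries, 6 of 12 rose and 0 fell, among them *Neurog2* (9.54 ± 1.02 to 27.2 ± 3.09 FPKM, n = 3, limma adjusted p = 1.18e-04) and *Eomes* (14.8 ± 1.47 to 34.2 ± 2.01), the factors of intermediate progenitors, while the cycling genes *Mki67* and *Top2a* were not called. Of 8 interneuron markers 0 were called in limma (1 lower and 1 higher at an unadjusted p under 0.05 without the fold threshold), with summed levels of 133 to 152 FPKM in controls and 143 to 173 in cKO libraries. Of 6 microglia markers 3 rose (sums of 42.6 to 48.3 and 54.1 to 70.7 FPKM). Choroid plexus markers summed to 5.46 to 16.5 FPKM in controls and 6.84 to 59.8 in cKO libraries, 2 of 3 tested being called higher without passing adjustment. Of 4 tested thalamus markers 2 were called higher, 1 of them with an adjusted p under 0.05 in limma. Their sums were 27.2 to 30.0 FPKM in controls and 36.8 to 41.9 in cKO libraries. The part of these cells in the levels of the 6 genes was not tested.

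A second set of values places each gene beside a partner that is used earlier or alongside it. VGLUT2 (*Slc17a6*) serves glutamate release in many immature neurons before VGLUT1. *Slc17a6* was at 10.98 ± 0.587 FPKM in control and 14.2 ± 0.860 in cKO hippocampi (n = 3), a log2 fold change of 0.34 (limma adjusted p = 0.0216) that is under the fold threshold. The ratio of *Slc17a7* to *Slc17a6* was 7.78, 9.67 and 6.05 in controls and 3.70, 3.74 and 4.62 in cKO libraries. *Camk2b*, the subunit of the same kinase that appears first in development, was at 198 ± 1.73 and 158 ± 0.371 FPKM, and *Camk2a* over *Camk2b* was 0.395, 0.481 and 0.347 in controls and 0.314, 0.276 and 0.325 in cKO libraries. *Gap43*, a growth-cone protein that binds calmodulin as neurogranin does, was at 438 ± 12.1 and 346 ± 21.2 FPKM, and *Nrgn* over *Gap43* was 0.235, 0.262 and 0.247 in controls against 0.145, 0.107 and 0.184. In each of these ratios all cKO libraries were below all controls. The partners *Camk2b* (log2 fold change -0.32, limma adjusted p = 0.00382) and *Gap43* (-0.34, limma adjusted p = 0.0112) were lower too, under the fold threshold. Since *Slc17a7*, *Camk2a* and *Nrgn* were chosen with this contrast known, their lower ratios here are a description with no test. The part of other cells, such as those with the thalamus markers that were higher in cKO, in the *Slc17a6* level was not tested.

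*Asic1*, the other main acid-sensing subunit of the brain, did not differ (68.3 ± 1.79 and 69.7 ± 3.74 FPKM, n = 3, log2 fold change 0.03, limma adjusted p = 0.799), but its entry is shared with *Smarcd1*. *Asic2* over this entry was 0.327, 0.352 and 0.331 in controls and 0.217, 0.207 and 0.218 in cKO libraries. The brain receptor for CCK, *Cckbr*, was low, at 1.24 ± 0.576 and 1.006 ± 0.418 FPKM, and was not called (limma adjusted p = 0.737).

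Across 9 lists of neuronal genes that leave out the 6, 106 of 109 genes were tested in *Kdm2b* hippocampi, 13 fell, 11 of them with an adjusted p under 0.05, and 0 rose. Without the fold threshold, at an unadjusted p under 0.05 in limma, 64 were lower and 4 higher. Of all 13446 tested genes, 1553 were lower and 1537 higher at that threshold. The sign was negative for 89 of the 106 list genes, with a median log2 fold change of -0.21, against 0.01 over all tested genes, of which 47.8% were negative. The lists were written with earlier results of these data known. In the list of pyramidal neuron maturation, 3 of 16 fell. The largest change was that of *Cpne6*, a calcium-binding copine of hippocampal neurons, from 4.41 ± 0.985 to 1.80 ± 0.711 FPKM (n = 3, limma adjusted p = 0.0214), then *Ptk2b*, a calcium-activated tyrosine kinase, from 12.3 ± 2.73 to 6.33 ± 1.46 (adjusted p = 0.0170).

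Of 17 genes of calcium and calmodulin signaling, 3 fell: the kinase *Camk4* (19.1 ± 1.22 to 12.6 ± 1.17 FPKM, limma adjusted p = 0.00520), the kinase-like *Camkv* (102 ± 2.995 to 73.0 ± 2.93, in an entry shared with *Traip*) and the calcineurin subunit *Ppp3ca* (log2 fold change -0.42). Of 18 presynaptic vesicle genes 2 fell, *Sv2b* (14.2 ± 1.09 to 9.13 ± 0.700 FPKM, adjusted p = 0.00502) and the third vesicular glutamate transporter *Slc17a8*, which did not pass adjustment (adjusted p = 0.0757), and 17 of the 18 were negative. Of 14 postsynaptic density genes 1 fell, the scaffold *Dlg2* (36.1 ± 1.51 to 26.9 ± 2.42 FPKM). In the immunoglobulin adhesion family, to which THY1 is related, 2 of 10 fell, *Cntn1* (44.9 ± 3.80 to 28.4 ± 2.51 FPKM, adjusted p = 0.00284) and *Ntm*, and all 10 were negative. Of 9 tested neuropeptide and CCK receptor genes 1 fell, *Penk*, the enkephalin precursor (2.60 ± 0.788 to 1.26 ± 0.270 FPKM, adjusted p = 0.0452). Of 9 pyramidal identity factors 1 fell, *Bcl11b* (19.2 ± 0.663 to 13.4 ± 3.72 FPKM, adjusted p = 0.0624). Neither of the 2 tested acid-sensing channel genes was called in limma, with or without the fold threshold.

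**Figure D2:**
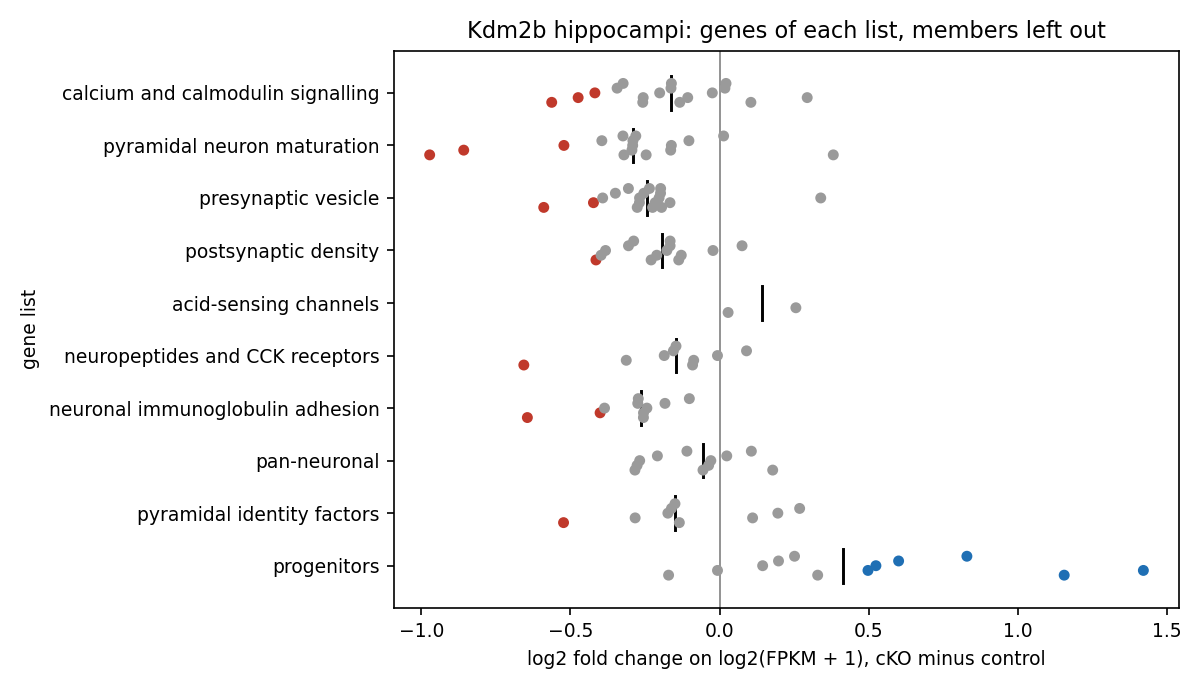
Log2 fold change (x axis, cKO minus control on log2(FPKM + 1)) of every tested gene of the 9 neuronal lists and of the progenitor list in *Kdm2b* hippocampi, where 1 point is 1 gene, the black bar the list's median, red a gene called lower, blue a gene called higher and grey a gene not called. Red points stand at the left of 7 of the neuronal lists and the 6 blue points all belong to progenitors, whose median is 0.41.

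Neurospheres are cultures of progenitors, and in them the 6 genes fell into 3 that were near 0 and 3 that could be tested. *Cck* was listed at 0 in both controls and in cKO 2, and at 0.152 FPKM in cKO 1. *Slc17a7* was at 0.0309 and 0.122 FPKM in controls and 0.127 and 0.138 in cKO cultures, and *Asic2* at 0.278 and 0.251 FPKM in controls and 0.0490 and 0.0219 in cKO cultures. These 3 were under the filter and were not tested. The progenitor list summed to between 4239 and 7539 FPKM over these cultures.

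*Thy1* had the highest level of the 6 in neurospheres, 32.7 and 33.4 FPKM in controls and 11.1 and 9.97 FPKM in cKO cultures. It fell by 68.0% of the control mean, a log2 fold change of -1.56 (SE 0.090, 95% interval -1.78 to -1.34, limma adjusted p = 0.00110), and it fell under every alternative run, with -1.58 without control 1 and -1.63 without cKO 1, the culture with little *Xist*. *Camk2a* was low, at 1.51 and 0.880 FPKM in controls and 0.462 and 0.285 in cKO cultures. Its mean was 1.19 FPKM in controls and 0.374 in cKO cultures, so it passed the filter of 0.5 through its controls alone, and its call is not independent of that filter. The log2 fold change was -0.66 (95% interval -1.20 to -0.12), past the call thresholds but not past adjustment (limma adjusted p = 0.0810), and with a filter at 1 FPKM it was not tested. Without control 1 its log2 fold change was -0.46 and without cKO 2 it was -0.57, and neither passed (adjusted p = 0.374 and 0.157). *Nrgn* was at 10.05 and 10.8 FPKM in controls and 10.1 and 16.0 FPKM in cKO cultures, which overlap (log2 fold change 0.27, 95% interval -0.23 to 0.77, adjusted p = 0.372). Its log2 fold change was 0.58 without cKO 1 (adjusted p = 0.0100, resting on the spread of the 2 controls) and -0.04 without cKO 2.

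Of all 12227 genes tested in neurospheres, 13.2% were called lower and 11.4% higher, and 34.4% had both cKO cultures below both controls, as *Thy1* did. With libraries rescaled to the same FPKM total the split of all calls changed from 1620 lower and 1392 higher to 830 lower and 1256 higher, the median of all genes moved from -0.01 to 0.09, and *Thy1* was at -1.45. *Gap43* rose, from 96.7 ± 3.30 to 172 ± 41.2 FPKM (n = 2, log2 fold change 0.80, limma adjusted p = 0.0240), and *Camk2b* did not differ (81.4 ± 5.32 and 81.5 ± 6.03 FPKM, adjusted p = 0.991). *Nrgn* over *Gap43* was 0.101 and 0.114 in controls and 0.0710 and 0.0798 in cKO cultures.

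Of 83 tested genes of the 9 neuronal lists, 25 fell and 11 rose in neurospheres, with a median log2 fold change of -0.09 against -0.01 over all genes. The immunoglobulin adhesion genes had 5 of 8 lower, among them *Ntm* (179 ± 26.2 to 71.1 ± 0.429 FPKM, n = 2, limma adjusted p = 0.00224) and *Lsamp* (40.0 ± 0.384 to 21.0 ± 3.68, adjusted p = 0.00693), with *Opcml*, *Ncam1* and *Alcam*, whereas *Cntn1*, *Negr1* and *Ncam2* were not called. In the calcium and calmodulin list 2 of 17 fell and 5 rose, with a median of 0.22. *Pcp4*, a calmodulin regulator, fell from 18.9 ± 5.65 to 0.378 ± 0.0571 FPKM (adjusted p = 0.00110) and *Camkv* rose from 1.34 ± 0.0803 to 3.52 ± 1.13 (adjusted p = 0.0267). Among genes of the other lists that fell were the vesicle genes *Sv2a* (13.8 ± 1.05 to 6.20 ± 0.530 FPKM, adjusted p = 0.00298) and *Snap25*, *Nptx1* and *Arpp21* of the maturation list, and the acid-sensing *Asic4*. The AMPA receptor subunit *Gria1* fell from 7.66 ± 0.395 to 0.598 ± 0.325 (adjusted p = 0.00158) and *Dcx*, a marker of young neurons, from 5.45 ± 0.842 to 0.388 ± 0.109 (adjusted p = 0.00163). The cKO means of *Pcp4*, *Asic4* and *Dcx* were under the filter of 0.5 FPKM. These genes passed it through their controls alone, so their calls are not independent of that filter. Genes that rose included the neurofilament *Nefm* (0.775 ± 0.0300 to 4.36 ± 1.37 FPKM, adjusted p = 0.00594). Of 7 glial markers 5 were called lower, but their summed level was not lower, at 2364 to 2405 FPKM in controls and 2429 to 2489 in cKO cultures.

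In P0 cortices, control means were 9.40 FPKM for *Cck*, 8.77 for *Slc17a7*, 5.79 for *Asic2*, 3.97 for *Nrgn*, 2.98 for *Thy1* and 1.96 for *Camk2a*. In this order *Nrgn* and *Thy1* overlapped, and the other neighbors lay apart in both libraries. The FPKM of this table resolve into whole reads, 18463270 to 21884591 per library, so the reads behind each gene are known.

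*Cck* fell by 49.3% of the control mean, from 9.28 and 9.52 FPKM (267 and 264 reads) in controls to 3.67 and 5.86 FPKM (94 and 143 reads) in cKO cortices. Its log2 fold change was -0.88 (SE 0.19, 95% interval -1.37 to -0.39), and *Asic2* also fell, from 5.79 FPKM in both controls (544 and 525 reads) to 4.02 and 3.40 FPKM (337 and 271 reads), with a log2 fold change of -0.53 (95% interval -0.78 to -0.28). Neither passed adjustment in limma on FPKM (adjusted p = 0.177 and 0.134, and 0.134 to 0.424 and 0.115 to 0.429 over the other FPKM alternatives). With limma-voom on the reads, both did, at -1.02 (adjusted p = 0.0334) and -0.64 (adjusted p = 0.0265). Without control 1, the cortex with *Xist* near 0, they were at -0.89 and -0.53 in limma.

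The other 4 genes were not called in cortices. *Thy1* was at 3.89 and 2.06 FPKM in controls and 1.90 and 1.89 in cKO cortices, with 257, 131, 112 and 106 reads, and the controls differed by more than the lower control differed from cKO. Its log2 fold change was -0.42 (95% interval -1.01 to 0.18, limma adjusted p = 0.546), and it was called lower without control 2 alone (-0.76). *Camk2a* was at 1.91 and 2.004 FPKM in controls and 1.41 and 1.77 in cKO cortices (-0.19, 95% interval -0.50 to 0.11). *Slc17a7* was at 9.06 and 8.47 FPKM in controls and 10.1 and 9.40 in cKO cortices (0.14, 95% interval -0.07 to 0.35, adjusted p = 0.564). *Nrgn* was at 5.25 and 2.69 FPKM in controls and 3.33 and 5.04 in cKO cortices, which overlap (0.09, 95% interval -0.66 to 0.85), and its sign turned without control 2 (-0.29) or without cKO 2 (-0.15). Intervals of *Nrgn* and *Thy1* are wide enough to hold falls as well as rises.

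Thus 2 of 6 genes were called lower and 0 higher in cortices, where 2.28% of 15691 genes were lower and 4.73% higher, and 0 of 6 passed adjustment in limma on FPKM but 2 did with limma-voom. In 4 of 6 both cKO libraries were below both controls, as in 22.8% of all genes. The *Asic2* over *Asic1* ratio was 0.371 and 0.405 in controls and 0.256 and 0.224 in cKO cortices, while *Slc17a7* over *Slc17a6* was 0.647 and 0.524 in controls and 0.760 and 0.690 in cKO cortices. *Camk2a* over *Camk2b* overlapped, with 0.0466 and 0.0511 in controls and 0.0433 and 0.0539 in cKO cortices.

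Of 99 neuronal list genes tested in cortices, 11 fell and 3 rose, both in limma and in limma-voom, and 0 and 1 of them had an adjusted p under 0.05 in limma. The median log2 fold change was -0.08 against -0.01 over all genes. The peptide genes *Npy* (72.2 ± 16.6 to 23.5 ± 10.5 FPKM, n = 2, limma adjusted p = 0.156) and *Nts* fell beside *Cck*, as did *Dlg2* (10.9 ± 0.825 to 7.41 ± 0.805, adjusted p = 0.165). *Ntm* and *Opcml* fell too, the latter from 5.99 ± 0.441 to 3.56 ± 0.176 FPKM (adjusted p = 0.0979). The synapsin *Syn2*, the neurofilament *Nefl* and *Zbtb20* were also called lower, and the kinase gene *Itpka* was called higher (0.189 ± 0.121 to 1.05 ± 0.0566 FPKM, adjusted p = 0.141). *Itpka* passed the filter of 0.5 FPKM through its cKO libraries alone and *Nts* through its controls alone, so these calls are not independent of that filter. The enolase gene *Eno2* rose, from 6.42 ± 0.379 to 13.7 ± 0.200 FPKM (adjusted p = 0.0280).

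Markers of other tissues moved with genotype in these cortices. All 6 meningeal markers rose, and their sum was 1.42 to 2.25 FPKM in controls and 20.5 to 34.8 in cKO libraries. Blood markers summed to 435 to 454 FPKM in controls and 624 to 712 in cKO libraries, endothelial markers to 34.8 to 35.4 and 55.7 to 56.5, and microglia markers to 13.8 to 15.4 and 21.1 to 27.7. Choroid plexus markers summed to 0.404 to 1.34 FPKM in controls and 1.57 to 1.83 in cKO libraries. The 1 that was tested was called higher (log2 fold change 0.93) without passing adjustment. None of the 6 choroid plexus markers had a mean over 1.33 FPKM in either group. Pan-neuronal genes summed to 1872 to 1903 FPKM in controls and 1770 to 1781 in cKO libraries. The part of these tissues in the levels of *Cck* and *Asic2* was not tested.

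**Figure D3:**
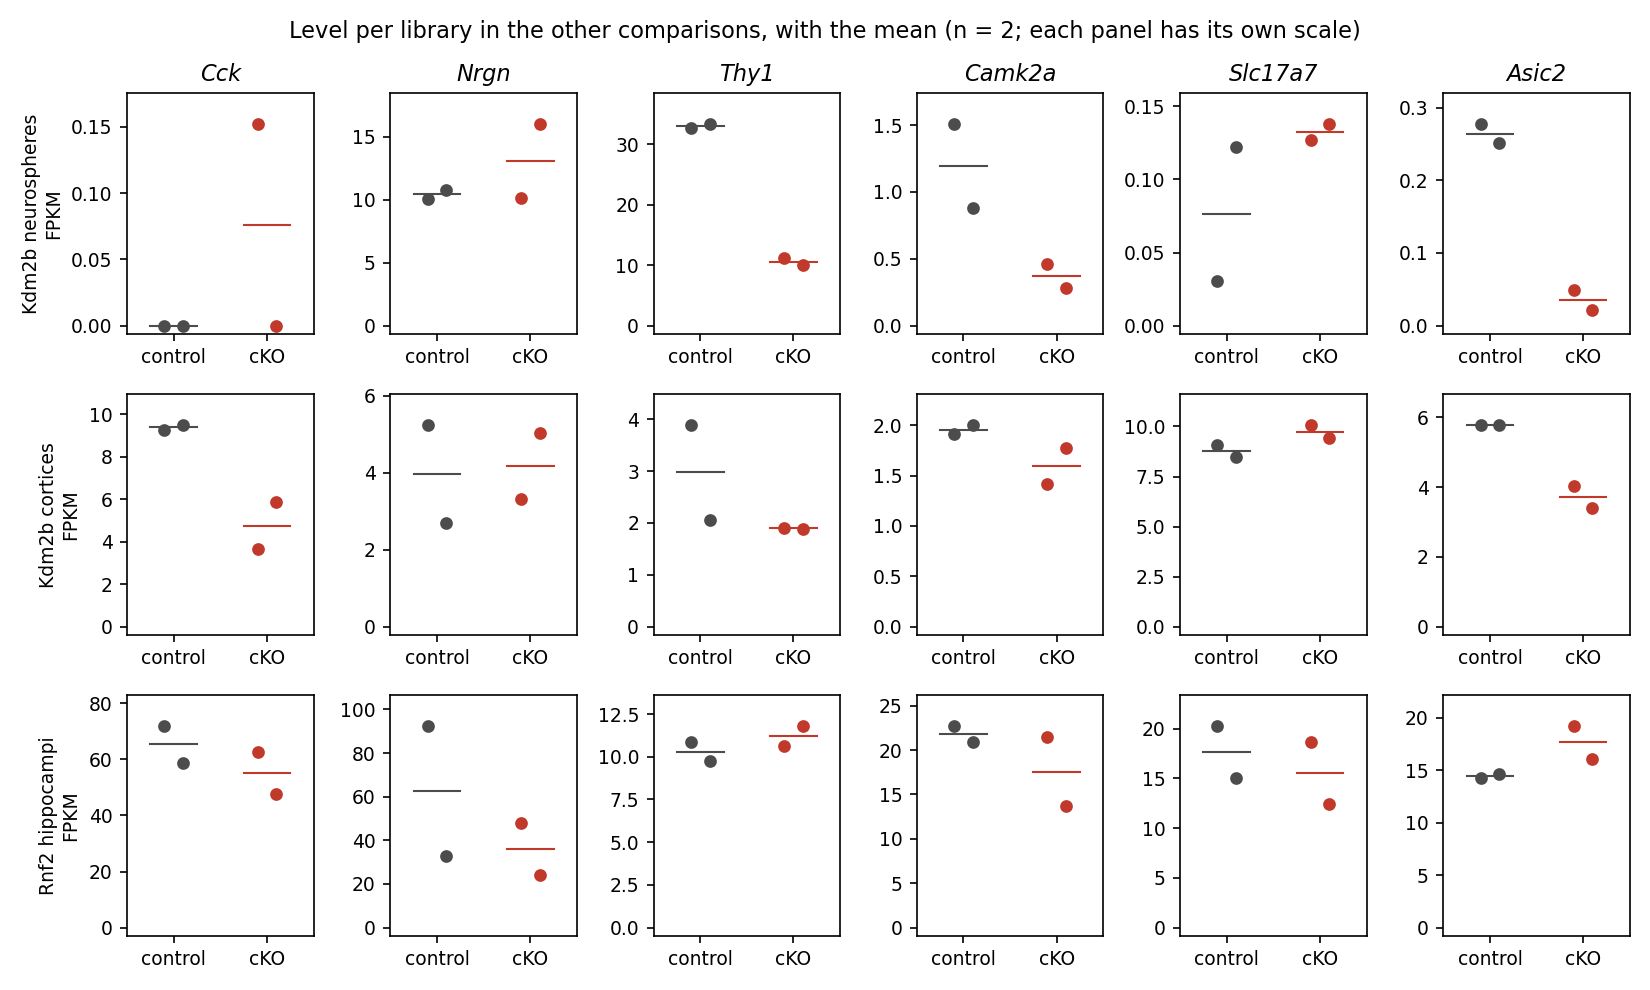
Level of each gene in FPKM (y axis, own scale in each panel) in the 2 control (grey) and 2 cKO (red) libraries of neurospheres, cortices and *Rnf2* hippocampi (rows), with a line at the mean. *Thy1* stands apart between genotypes in neurospheres (32.7 and 33.4 against 11.1 and 9.97), *Cck* and *Asic2* in cortices, and the controls of *Nrgn* in *Rnf2* hippocampi spread from 32.7 to 92.6.

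*Rnf2* hippocampi ask whether the catalytic subunit of the complex, deleted with the same Cre, goes with the same levels. None of the 6 genes was called in limma (0 at an unadjusted p under 0.05 without the fold threshold, and 0 with limma-voom on 14654894 to 16334420 recovered reads per library), where 1.85% of 15764 genes were lower and 2.86% higher. Over all genes 0 passed adjustment, and 1121 had an unadjusted p under 0.05. *Cck* was at 72.1 and 58.8 FPKM in controls and 62.7 and 47.7 in cKO hippocampi, which overlap (log2 fold change -0.25, 95% interval -0.68 to 0.19, adjusted p = 0.774). The difference from *Kdm2b* hippocampi was not tested, because the values there chose the genes.

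*Camk2a* was at 22.8 and 20.9 FPKM in *Rnf2* controls and 21.4 and 13.7 in cKO hippocampi (-0.33, 95% interval -0.86 to 0.20, limma adjusted p = 0.762), and without cKO 1 it was called lower, at -0.63 with an adjusted p of 0.997. *Slc17a7* was at 20.3 and 15.1 FPKM in controls and 18.6 and 12.4 in cKO hippocampi (-0.19, 95% interval -0.76 to 0.38). Its value was 0.01 without control 1 and 0.08 without cKO 2. *Nrgn* varied most, with 92.6 and 32.7 FPKM in controls and 47.8 and 23.9 in cKO hippocampi (2013, 739, 1148 and 563 reads), so that the controls alone spanned more than both cKO libraries. Its log2 fold change of -0.69 had an interval from -2.03 to 0.65 (adjusted p = 0.793), was 0.05 without control 1, and was called at -1.42 without control 2 (adjusted p = 0.363).

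*Thy1* (10.9 and 9.74 FPKM in controls, 10.6 and 11.8 in cKO) and *Asic2* (14.3 and 14.7 in controls, 19.3 and 16.1 in cKO) were not lower in *Rnf2* cKO hippocampi. *Asic2* was higher in both cKO libraries, without passing the test (0.26, 95% interval -0.05 to 0.58, limma adjusted p = 0.727), and the *Thy1* interval was -0.20 to 0.42. Of the 6 genes 0 had both cKO libraries below both controls, a pattern of 18.7% of all genes. Of 104 neuronal list genes 2 fell, *Adcyap1* (2.74 ± 0.168 to 1.54 ± 0.0393 FPKM, n = 2, adjusted p = 0.643) and *Alcam* (log2 fold change -0.41, adjusted p = 0.679), and 0 rose in limma or limma-voom (1 at an unadjusted p under 0.05 without the fold threshold). Meningeal markers summed to 37.5 to 37.7 FPKM in controls and 17.1 to 25.7 in cKO libraries, choroid plexus markers to 12.6 to 50.7 and 7.73 to 243. The part of these tissues was not tested.

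**Figure D4:**
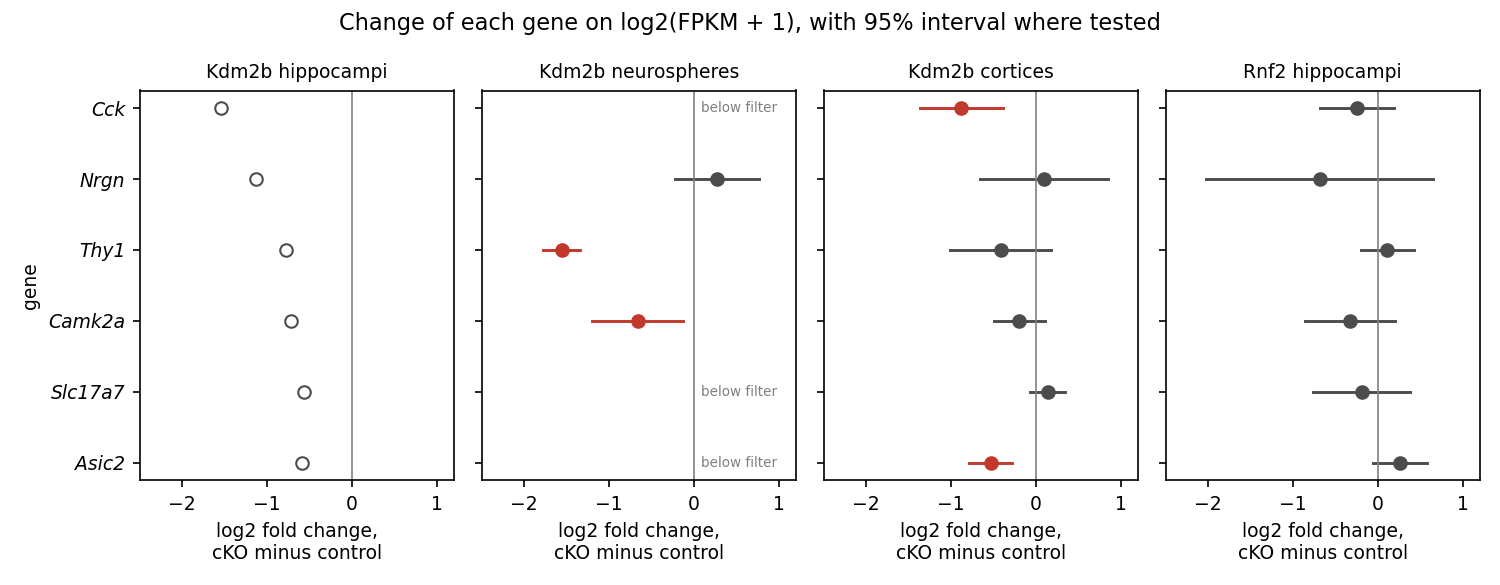
Log2 fold change of each gene (x axis, cKO minus control on log2(FPKM + 1)) in the 4 tables, with the 95% interval from limma where the gene was tested, red if called and grey if not. Open circles in *Kdm2b* hippocampi carry no interval because those values chose the genes, and 3 genes were below the filter in neurospheres. Called outside hippocampi were *Thy1* (-1.56) and *Camk2a* (-0.66, past the filter through its controls alone) in neurospheres and *Cck* (-0.88) and *Asic2* (-0.53) in cortices, and none in *Rnf2* hippocampi.

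Set side by side, *Thy1* was called lower in neurospheres but not in cortices, and *Cck* and *Asic2* were called lower in cortices and could not be tested in neurospheres. Differences between the tables were not tested. Control levels in *Rnf2* hippocampi (65.4 ± 9.40 FPKM for *Cck*, 17.7 ± 3.69 for *Slc17a7*, n = 2) stand beside 186 ± 47.7 and 85.3 ± 15.5 in *Kdm2b* hippocampi (n = 3), in tables from separate processing, so levels cannot be set against each other across them. The plot of ratios gives pairs of genes within a library, where library scaling cancels but other differences in processing remain. *Slc17a7* over *Slc17a6* was 1.62 and 1.33 in *Rnf2* controls. It was 6.05 to 9.67 in *Kdm2b* hippocampal controls and 3.70 to 4.62 in cKO. *Camk2a* over *Camk2b* and *Nrgn* over *Gap43* overlapped between these controls. The *Asic1* entry is shared in *Kdm2b* hippocampi, so its ratio was not compared. The cause was not tested, which limits what the lack of calls in *Rnf2* hippocampi can mean.

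**Figure D5:**
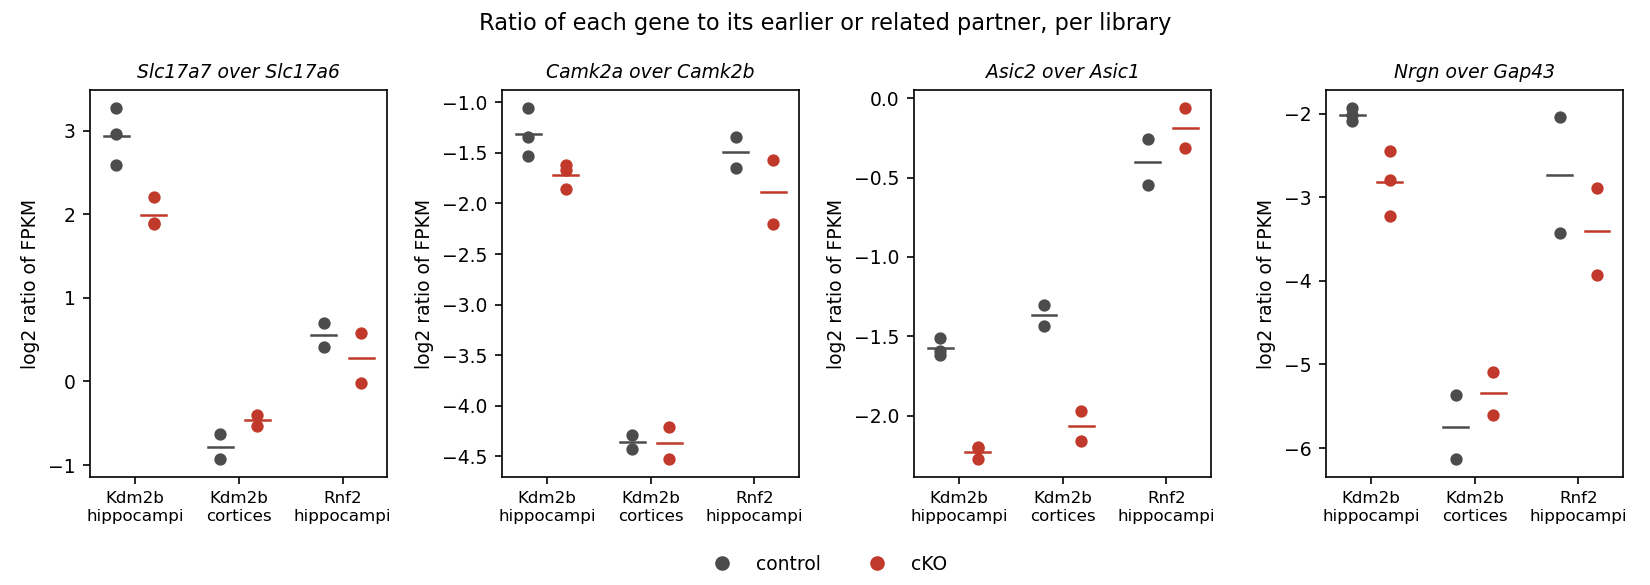
Log2 ratio of FPKM (y axis, own scale in each panel) of 4 of the genes to a related partner, per library (points) with the group mean (lines), for control (grey) and cKO (red) libraries of 3 tissue tables. In *Kdm2b* hippocampi all 4 mean ratios were lower in cKO, with differences of -0.94, -0.41, -0.65 and -0.81 from left to right. These are a description, since the genes were chosen with those libraries known. In cortices only *Asic2* over *Asic1* was lower in both cKO libraries, and in *Rnf2* hippocampi genotypes overlapped in all 4.

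How the 6 genes vary together was described over the 14 tissue libraries, on log2(FPKM + 1) centered on each table's mean. The points share genotype groups, and the 6 *Kdm2b* hippocampal libraries carry the pattern that chose the genes, so r is also given over the other 8. The pair with r least changed was *Nrgn* with *Slc17a7* (0.852, and 0.846 over the other 8 libraries). *Camk2a* with *Slc17a7* was at 0.886 and 0.662, and *Cck* with *Camk2a* at 0.873 and 0.702. *Thy1* with *Asic2* was at 0.819 and 0.552, whereas *Nrgn* with *Asic2* went from 0.406 to -0.185 and *Thy1* with *Camk2a* from 0.645 to -0.020. Outside *Kdm2b* hippocampi, then, r was 0.661 to 0.846 among the synaptic genes *Nrgn*, *Slc17a7* and *Camk2a*. Between these and *Thy1* or *Asic2* it was -0.185 to 0.183. *Cck* was related to genes of both sets, with 0.702 for *Camk2a*, 0.587 for *Asic2* and 0.459 for *Thy1*, and less for *Nrgn* (0.373) and *Slc17a7* (0.113). Over 8 libraries this is a description with no test.

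The 10532 genes tested in all 3 tissue tables, the 6 included, were compared. The other genes most like each of the 6 over the 14 libraries were named by the same r, again with r over the other 8. The ranking used the *Kdm2b* hippocampal libraries, so levels of the ranked genes there are a description with no test. It used the other 8 libraries as well, so the second r is no independent check of the match. For *Cck* the closest genes were the histone deacetylase *Hdac9* (0.953 and 0.985) and the muscarinic receptor *Chrm1* (0.938 and 0.929). *Chrm1* was at 10.4 ± 1.62 FPKM in control and 5.13 ± 0.899 in cKO hippocampi (n = 3). For *Nrgn* the closest were *Arpc5*, a subunit of the actin-branching Arp2/3 complex (0.949 and 0.942), and *Lor*, loricrin, known as a protein of the skin (0.947 and 0.928). *Lor* was at 11.9 ± 1.44 and 6.63 ± 0.971 FPKM in control and cKO hippocampi. For *Thy1* they were *Dpp6*, a partner of potassium channels (0.958 and 0.876), and *Gap43* (0.922 and 0.875).

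For *Camk2a* the closest were *Lsm11*, of the histone mRNA processing complex (0.957 and 0.915), and *Erc2*, a protein of the presynaptic active zone (0.936 and 0.845), and for *Slc17a7* the receptor *Gpr176* (0.964 and 0.902) and *Lsm11* again (0.948 and 0.881). For *Asic2* they were *Hivep3* (0.931 and 0.870) and *Arhgap23* (0.931 and 0.957). The mean of the 6 was most like *Fgf13*, which binds sodium channels (0.972 and 0.905), *Fam163b* (0.971 and 0.895) and the vesicle protein gene *Sv2b* (0.962 and 0.845). In *Kdm2b* hippocampi *Fam163b* was at 21.4 ± 1.77 FPKM in control and 13.2 ± 1.44 in cKO libraries (n = 3). *Fgf13* stayed under the fold threshold (135 ± 6.52 and 107 ± 5.50 FPKM). Both were ranked on these same libraries, so their levels there are a description with no test.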

How the data were processed

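Poly(A)-selected RNA was sequenced by the authors as paired ends with a kit that does not mark strand. The deposited values are FPKM per gene, made by the authors in 4 tables that were normalized separately. For hippocampi and neurospheres the study's methods give cutadapt, STAR on mm10 and Cufflinks 2.2.1. The submitters' notes list the same tools for all samples, without saying which made the cortical and *Rnf2* tables. FPKM times gene length came to whole reads in these last 2 tables (100% of values under 1000 reads, within 0.05 of a whole number). For the others the reads of each library could not be recovered, and the paper states a common depth for its RNA-seq libraries.

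Entries without a gene name were left out (2861 of 27180 in the *Kdm2b* hippocampal, 2059 of 26293 in the neurosphere and 140 of 54672 in the cortical table), and a name with several entries was read from the one of highest mean, which for *Camk2a* and *Asic2* in hippocampi left out a second entry of at most 2.16 FPKM. Genes averaging 0.5 FPKM or more were tested on log2(FPKM + 1), table by table, using limma 3.58.1 (R 4.3.3) with its trended eBayes. Calls needed an unadjusted p under 0.05 and a log2 fold change over 0.4 in either direction. The script was tested on simulated data. Alternatives were a pseudocount of 0.1, other filters and scalings, no trend, a replicate block, adjusted p, no fold threshold, the sum of entries, limma-voom on recovered reads and each library left out. The crossed block and the comparison with pan-neuronal genes were added after the data were seen.

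The 6 genes and all gene lists were chosen with earlier results of these data known. Named beside the 6 are their partner genes, in each neuronal list and table the 2 called genes with the largest fold change, and the genes with the highest r. A few genes that this rule names are not reported here. *Ppp3ca*, *Tubb3*, *Map2*, progenitor and marker genes, and list genes given for a second table, were named outside that rule, with their values known.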

Additional observations from a re-analysis of the deposited data

Results flagged for a closer look

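For *Slc17a7*, all 3 cKO hippocampi were below the control mean and both cKO cortices were above theirs. The cortical log2 fold change of 0.14 was not called (95% interval -0.07 to 0.35, limma adjusted p = 0.564). The difference was not tested, since the hippocampal values chose the gene and the tables were normalized apart.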

How the results depend on the processing

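All 6 genes stayed lower in *Kdm2b* hippocampi under every alternative run. Genes called over the table went from 826 to 3090 there without the fold threshold, from 3012 to 4669 in neurospheres, from 1100 to 2013 in cortices and from 742 to 1121 in *Rnf2* hippocampi. With adjusted p they were 67 in cortices and 0 in *Rnf2* hippocampi. With a library left out they ranged from 1015 to 1667 in cortices (highest without control 1) and from 468 to 1580 in *Rnf2* hippocampi (lowest without cKO 2, highest without control 2). Of the 3 genes tested in neurospheres, 2 were called lower (*Camk2a* past the filter through its controls alone), where 13.2% of all tested genes were lower and 11.4% higher. With a filter at 1 FPKM or adjusted p only 1 was called, and the calls changed with a library left out. In cortices 2 of the 6 genes were called lower, where 2.28% of all tested genes were, and 0 with adjusted p. In *Rnf2* hippocampi 0 of the 6 were called, and this changed with a library left out.

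With a library left out, *Nrgn* ranged from -0.039 to 0.58 in neurospheres, -0.29 to 0.47 in cortices and -1.42 to 0.051 in *Rnf2* hippocampi, and *Slc17a7* from -0.47 to 0.084 in the latter. The log2 ratio difference of *Camk2a* over *Camk2b* ranged from -0.17 to 0.14 in cortices. In *Rnf2* hippocampi that of *Slc17a7* over *Slc17a6* ranged from -0.57 to 0.025 and that of *Nrgn* over *Gap43* from -1.37 to 0.021.

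Same-numbered libraries did not deviate together in *Kdm2b* hippocampi (r = 0.05, -0.10 and -0.09), and the numbers were not taken as pairs. The replicate block gave 831 calls there, 2993 in neurospheres, 1197 in cortices and 989 in *Rnf2* hippocampi (r = 0.16), where *Nrgn* became the 1 gene of the 6 called (adjusted p = 0.354). In neurospheres (r = -0.28), the crossed replicate block, chosen after seeing the data, gave 3084 calls. The cause of these changes was not tested. The reads of each library could not be recovered for *Kdm2b* hippocampi and neurospheres, and 2 libraries per group limit the other tables.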
